A study of Homo sapiens with 3 samples.

Results

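A group of 39 genes that serve the repair of DNA breaks and of mismatched bases was read on 3 gene expression arrays of HCT116 cells, a human colorectal cancer cell line, after knockdown of PRMT1. Genes were taken by name from the 41749 gene names on the array, and each gene was read at its brightest probe. The control (NC) was labelled PRMT1-NC, and the knockdowns (KD1 and KD2) were labelled PRMT1-KD1 and PRMT1-KD2, with 1 array each, all of the same cell line. PRMT1 is the main enzyme that places asymmetric dimethyl marks on arginines, among them arginine 3 of histone H4, and the comparison asks which transcripts change when it is reduced. With 1 array per group there is no replicate check, so every difference is between single arrays and carries no p-value.

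Double strand breaks are sensed by a complex of MRE11, RAD50 and NBN and are then either joined directly by the Ku proteins and DNA ligase 4 or cut back to single strands and copied from the sister chromatid by the BRCA proteins and their partners. The Fanconi anaemia proteins open DNA crosslinks at stalled forks and hand the resulting breaks to recombination, and the mismatch repair proteins remove replication errors, a pathway that HCT116 cells are known to lack in working form. PRMT1 is known to methylate the proteins made by MRE11A (MRE11 in current naming), BRCA1 and TP53BP1 (53BP1). The arrays measured transcript levels and not these proteins or their methylation.

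According to the labels the knockdowns were made with small interfering RNAs. The labels give a pair of sequences without saying which one was used for KD1 and which for KD2. The study's methods also name small interfering RNAs, while its results text speaks of short hairpin RNAs, so the kind of agent is uncertain. The sequences are shown because they are those given for the agents by which the arrays differ.
siRNA-1: cugaaguccaggucgauggugaaguc
siRNA-2: uuguagucuuuguacugcc
Log2 signal of PRMT1 relative to the 75th percentile of each array was 6.03 in NC, 2.75 in KD1 and 1.48 in KD2. The PRMT1 probe was therefore far below the control in KD1 (-3.28) and lower again in KD2 (-4.55), in the direction of the labels.

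Transcripts were read by probes of 60 bases, and 3 of them are printed here. These probes are of a gene whose protein PRMT1 is known to methylate, of a gene read at 10 spots and of XRCC3 (brightest probe, first 30 bases). Their positions are those of the array's own annotation on genome build hg19, and gene models of that build were not used here.
MRE11A, chr11:94192656-94192715, minus strand: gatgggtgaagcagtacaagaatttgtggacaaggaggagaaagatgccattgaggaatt
MSH6, chr2:48033919-48033978, plus strand: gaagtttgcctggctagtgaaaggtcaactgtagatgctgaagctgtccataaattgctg
XRCC3, probe at chr14:104170734-104170793, minus strand, first 30 bases: ccagcCTGGGCGACAGAGTGAgtctcttgt
Capitals in the XRCC3 probe mark 16 bases that also stand in a probe of 1 other gene name, LOC284014, and that belong to a run of letters known from Alu repeats, which are short sequences scattered through the human genome. Whether transcripts of other loci add to the signal of this XRCC3 probe was not tested.

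Promoters of repair genes are known for binding sites of the E2F factors, which switch on genes of the S phase. In RefSeq (GRCh38.p14), 35 of the 39 genes had a promoter window of 300 bases, from 250 bases before the transcription start to 50 after it, and FANCI, NBN, WRN and XRCC5 had none in the table. The letters TTNNCGC, with NN as CC, CG, GC or GG and read on both strands, stood in a window of 21 of the 35 genes (60%), against 15.3% of all 27305 genes in the table and 20.5% of the protein-coding ones. The 250 bases before the start are shown for 3 genes that hold such letters (in capitals), BLM, FANCA and RAD54L, and for 2 genes that do not, BRCA2 and FANCM, because both kinds were lower in the knockdowns.
BLM, chr15:90717096-90717345, plus strand: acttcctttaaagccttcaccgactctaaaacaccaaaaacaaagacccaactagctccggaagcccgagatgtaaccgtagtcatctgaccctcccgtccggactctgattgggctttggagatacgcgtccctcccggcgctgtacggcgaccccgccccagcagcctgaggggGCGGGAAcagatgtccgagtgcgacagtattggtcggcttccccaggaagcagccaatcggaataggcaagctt
FANCA, chr16:89816648-89816897, minus strand: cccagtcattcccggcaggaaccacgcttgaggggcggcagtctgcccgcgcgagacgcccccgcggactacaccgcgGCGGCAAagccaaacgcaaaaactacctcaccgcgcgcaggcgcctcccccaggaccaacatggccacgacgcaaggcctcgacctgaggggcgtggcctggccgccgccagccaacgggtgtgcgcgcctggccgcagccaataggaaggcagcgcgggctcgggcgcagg
RAD54L, chr1:46247438-46247687, plus strand: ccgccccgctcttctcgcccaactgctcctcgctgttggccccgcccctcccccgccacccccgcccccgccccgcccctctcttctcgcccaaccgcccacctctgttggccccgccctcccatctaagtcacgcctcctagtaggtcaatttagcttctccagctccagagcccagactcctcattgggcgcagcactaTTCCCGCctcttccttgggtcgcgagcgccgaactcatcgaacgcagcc
BRCA2, chr13:32315258-32315507, plus strand: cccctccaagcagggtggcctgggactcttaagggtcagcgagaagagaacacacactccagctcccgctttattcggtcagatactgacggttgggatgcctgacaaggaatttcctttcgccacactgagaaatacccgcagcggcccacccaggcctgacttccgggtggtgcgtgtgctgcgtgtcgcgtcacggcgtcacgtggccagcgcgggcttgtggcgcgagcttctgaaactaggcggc
FANCM, chr14:45135680-45135929, plus strand: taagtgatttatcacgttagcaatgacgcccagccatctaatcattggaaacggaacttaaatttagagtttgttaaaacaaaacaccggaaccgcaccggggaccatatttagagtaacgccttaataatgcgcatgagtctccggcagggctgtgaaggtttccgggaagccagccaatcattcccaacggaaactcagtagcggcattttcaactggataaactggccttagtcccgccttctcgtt
Other sets of letters were counted in the same windows. CCAAT stood in 19 of the 35 genes (54.3%, against 39.7% of all genes), CCGGAA, the core of sites of the ETS factors, in 14 (40%, against 20.1%), and the cell cycle homology letters TTTGAA or TTCGAA in 3 (8.57%, against 19.5%). Among the protein-coding genes the shares were 42.1% for CCAAT, 26.6% for CCGGAA and 17.5% for the cell cycle homology letters. All of these are matches of letters and not sites at which a factor was measured.

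The repair genes lay mostly below the control in both knockdowns, by small amounts, when each array was scaled to its 75th percentile, and this direction turned above the control for KD1 when the arrays were scaled to spike-in controls or left unscaled, and for KD2 with the spike-in controls. Of the 39 genes, 38 gave a signal well above background on 1 or more arrays and 37 did so on all 3. The median change was -0.32 in KD1 and -0.22 in KD2 on the log2 scale, against -0.068 and -0.046 over all genes. In KD1, 28 of 38 genes (73.7%) lay below the control, against 55.5% of all genes, and in KD2 30 of 38 (78.9%) did, against 54.3%. In both knockdowns at once 26 of 38 (68.4%) did, against 43.4%.
Genes past a 1.5-fold change (0.585 on the log2 scale) were fewer. In KD1, 10 of the 38 genes were lower by this fold (26.3%, against 14% of 19231 genes measured) and 2 were higher (5.26%, against 12.4%). In KD2, 7 were lower (18.4%, against 10.6% of 19421 genes) and 0 were higher (against 9.68%). The 4 genes lower in both knockdowns were BRCA2, XRCC3, BLM and FANCM (10.5%, against 5.62% of 18602 genes), and none was higher in both, against 4.87%. The robust SD of the difference between KD1 and KD2 was 0.377 over the 17054 genes that all 3 arrays measured above background and 0.318 over the repair genes, so a change of 1.5-fold in 1 knockdown is less than 2 such SDs from 0.

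**Figure D1:**
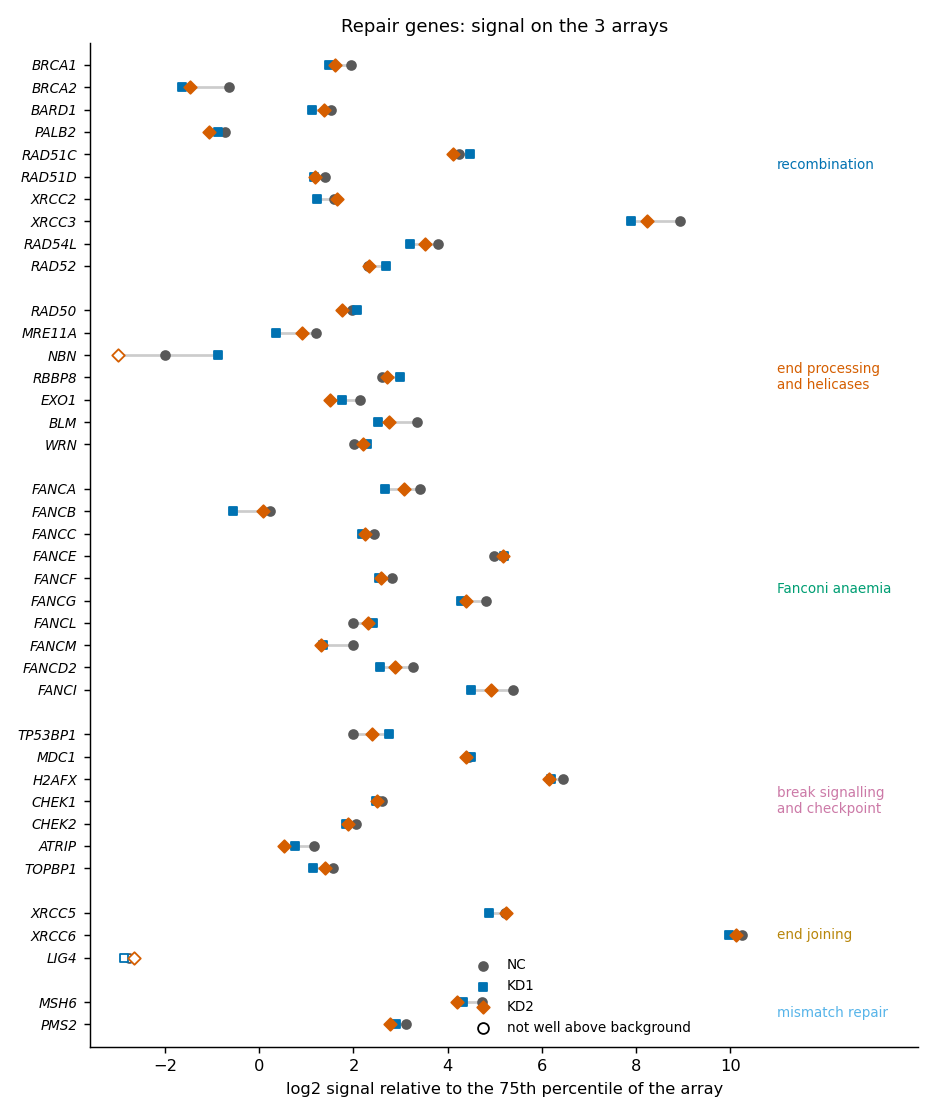
Log2 signal of the 39 repair genes, grouped by role, relative to the 75th percentile of each array (NC grey circles, KD1 blue squares, KD2 orange diamonds, 1 array each). Open symbols were not well above background, which held for LIG4 on all 3 arrays and for NBN on KD2.

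In the recombination group of 10 genes, 3 were lower by 1.5-fold in KD1 (30%, against 14% of all genes) and 2 in KD2 (20%, against 10.6%). The group medians were -0.38 and -0.25. BRCA2, a large protein of the recombination step that is known for inherited breast and ovarian cancer, had log2 signals of -0.64 in NC, -1.63 in KD1 and -1.47 in KD2. Both knockdowns were thus below the control by nearly the same amount (-0.996 and -0.835), which leaves 50.1% and 56.1% of the control signal. With normexp background correction BRCA2 was inside 1.5-fold (-0.45 and -0.38), and with spike-in scaling too (-0.35 and -0.54). At 2-fold, XRCC3 was the 1 repair gene lower in KD1 (against 3.57% of all genes) and none was lower in KD2 (against 2.48%).
XRCC3, a protein of homologous recombination, read 8.93, 7.89 and 8.24 at the probe printed above, a change of -1.05 in KD1 and -0.69 in KD2. A second XRCC3 probe, which holds none of the shared letters, read 5.41, 4.81 and 4.92 and changed by -0.60 and -0.48. It was past 1.5-fold in KD1 alone. With XRCC3 left out, 9 of 37 genes were lower in KD1 (24.3%, against 14% of all genes). In KD2 6 were (16.2%, against 10.6%), and in both 3 were (8.11%, against 5.62%).
RAD54L, a motor protein that acts in strand exchange, read 3.80, 3.20 and 3.52, and its KD1 change of -0.60 was the one closest to the 1.5-fold line from the far side, with FANCG (-0.53) the closest from the near side. RAD54L fell inside the line (-0.58) when the percentile was taken over each array's own usable probes. BRCA1, which steers breaks towards recombination and is a known PRMT1 substrate, was read at 10 spots per array. Its signal was 1.94 in NC, 1.49 in KD1 and 1.62 in KD2, with an SD between spots of 0.04 to 0.08. The BRCA1 changes of -0.46 and -0.33 exceeded that spread, which covers the array's own error only, and stayed inside 1.5-fold.
The partners of BRCA1 and BRCA2 stayed inside 1.5-fold. BARD1, the partner of BRCA1, changed by -0.40 and -0.15, and PALB2, which links BRCA1 to BRCA2, by -0.15 and -0.35. The genes of small recombination proteins related to XRCC3 split by sign. RAD51D was at -0.22 in both knockdowns at its brightest probe, RAD51C at 0.23 and -0.13, and XRCC2 at -0.36 and 0.07. A second RAD51D probe changed by -0.65 and -0.11, and a dimmer one by 0.01 and 0.36. XRCC2 was among the 5 repair genes with the widest gap between KD1 and KD2. RAD52, an annealing protein, was not below the control in either knockdown (0.38 and 0.02).

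In the group of 7 genes for end processing and helicases the members of one complex went separate ways. RAD50, the long coiled-coil subunit of the MRE11 complex, read 1.97, 2.07 and 1.75 at 10 spots (SD between spots 0.05 to 0.07), a change of 0.10 and -0.22. MRE11A, the nuclease subunit and a PRMT1 substrate, read 1.20 in NC, 0.36 in KD1 and 0.91 in KD2. It was lower by 1.79-fold in KD1 (-0.84) and by 1.23-fold in KD2 (-0.29), and the KD2 array lay nearer to the control than to KD1.
NBN, the subunit that recruits the ATM kinase, read -1.998 in NC and -0.88 in KD1, a change of 1.12. In KD2 the NBN probe was not well above background (-2.999, below the lowest such signal of -2.82), so it was at least 1.77-fold lower than NC there. NBN was 1 of 2 repair genes apart by 1.5-fold between KD1 and KD2 (5.26%, against 18.6% of 19544 genes), the other being FANCB.
BLM, the helicase that dissolves crossed strands and is lost in Bloom syndrome, read 3.36, 2.53 and 2.76. Its changes of -0.83 and -0.60 were both past 1.5-fold, the KD2 value only just, with MSH6 (-0.55) the first gene on the near side. BLM was inside the line in KD2 with normexp correction (-0.547), with quantile normalization (-0.545), with the percentile over probes that all arrays measured (-0.55), with spike-in scaling (-0.31) and unscaled (-0.50). EXO1, the nuclease that cuts back break ends and mismatched strands, read 2.13, 1.75 and 1.51 at 10 spots. In EXO1 the larger change was in KD2 (-0.62, against -0.38 in KD1). That KD2 change was just past 1.5-fold, and with normexp correction it was inside (-0.51). The remaining 2 genes, WRN, a helicase lost in Werner syndrome, and RBBP8, whose protein CtIP starts the cutting of ends, were above the control in both knockdowns, by 0.11 to 0.38.

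**Figure D2:**
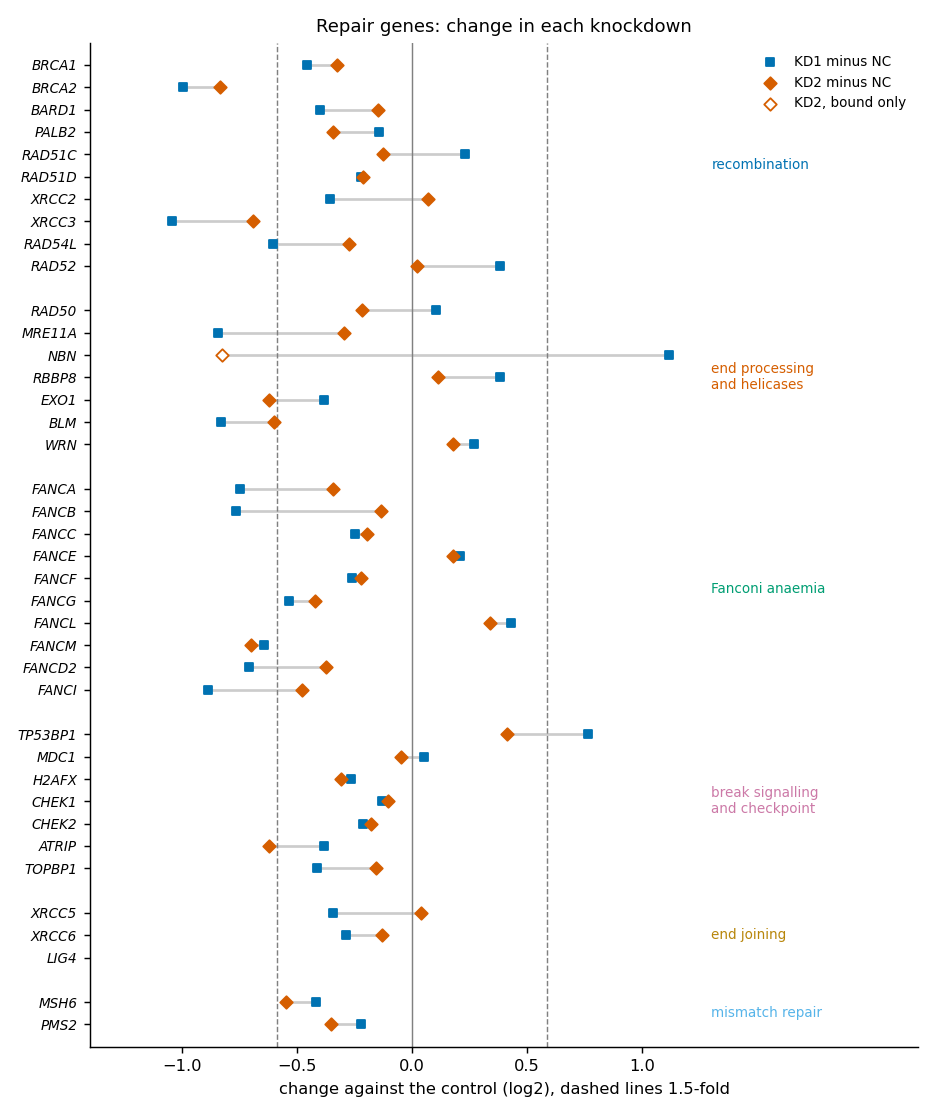
Change of each repair gene against the control on the log2 scale with 75th percentile scaling (KD1 blue squares, KD2 orange diamonds, 1 array each, dashed lines at 1.5-fold, the open diamond a bound). Points left of the left line are the 10 genes lower in KD1 and the 7 lower in KD2, and with spike-in scaling no gene lies there.

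In the Fanconi anaemia group of 10 genes, 5 were lower by 1.5-fold in KD1 (50%, against 14% of all genes) and 1 in KD2 (10%, against 10.6%). The group median was -0.59 in KD1 and -0.28 in KD2. With normexp background correction FANCB (-0.56), FANCD2 (-0.53) and FANCM (-0.45) were inside 1.5-fold in KD1. FANCA (-0.62) and FANCI (-0.74) stayed past it, and the share of all genes lower in KD1 was then 4.99%. FANCD2 and FANCI form the pair that is ubiquitinated at crosslinks. FANCI read 5.39 in NC, 4.51 in KD1 and 4.91 in KD2, which is 54.1% and 71.7% of the control. FANCD2 read 3.26, 2.55 and 2.89 at its brightest probe, a change of -0.71 and -0.37. At these probes KD2 lay between KD1 and the control in both genes of the pair, which did not hold at the other FANCD2 probes, given below.
FANCM, the helicase that anchors the core complex to DNA, read 2.0, 1.36 and 1.302, and was the Fanconi gene lower by 1.5-fold in both (-0.65 and -0.70), though not with normexp correction (-0.45 and -0.56). FANCA, a scaffold of the core complex, read 3.41, 2.66 and 3.07, a change of -0.75 and -0.34. FANCB, a second core subunit, read 0.22 in NC, -0.55 in KD1 and 0.08 in KD2. For FANCB the KD2 array stayed near the control (-0.13) while KD1 was 1.70-fold lower (-0.77).
The core subunits FANCC, FANCF and FANCG, were below the control in both knockdowns by less than 1.5-fold, by -0.19 to -0.53. FANCE, which binds FANCD2, and FANCL, the ubiquitin ligase of the complex, were above it in both at their brightest probes, by 0.18 to 0.43. A second FANCL probe lay below the control in both (-0.39 and -0.20), and a second FANCF probe lay above it in KD1 (0.41). The Fanconi genes thus included both signs in each knockdown, and the sign of FANCL depended on the probe.

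The 7 genes of break signalling and checkpoint held none that was lower by 1.5-fold in KD1 (against 14% of all genes) and 1 in KD2 (14.3%, against 10.6%). Their medians were -0.22 and -0.15. TP53BP1, which protects break ends from cutting and is a PRMT1 substrate, read 1.98 in NC, 2.75 in KD1 and 2.40 in KD2. It was above the control by 0.76 in KD1, past 1.5-fold, and by 0.41 in KD2. Of the 3 known substrates, TP53BP1 was therefore above the control on both knockdown arrays, while MRE11A and BRCA1 were below it on both.
ATRIP, the partner that brings the ATR kinase to single strands, read 1.15, 0.77 and 0.53 at its brightest probe. Its KD2 change (-0.62) just passed 1.5-fold and its KD1 change (-0.38) did not. With normexp correction the ATRIP change in KD2 was inside 1.5-fold too (-0.45). The other 5 genes, MDC1, H2AFX, CHEK1, CHEK2 and TOPBP1, lay between -0.41 and 0.05 in both knockdowns at their brightest probes. The remaining CHEK2 probes ranged from -0.58 to 0.56 in KD1 and from -0.49 to -0.04 in KD2. The sign of CHEK2 in KD1 thus depended on the probe. H2AFX, which encodes the histone variant phosphorylated at breaks, had 1 of the 3 highest probe signals of the repair genes in NC (6.46), with XRCC6 (10.3) and XRCC3. Probe signals of different genes are not levels that can be set against each other.

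Of the end joining genes, XRCC6 and XRCC5, which encode the Ku proteins that cap break ends, were measured on all arrays. XRCC6 read 10.3, 9.97 and 10.1, a change of -0.29 and -0.13, and XRCC5 changed by -0.34 and 0.04. LIG4, the ligase of this pathway, was not well above background on any array (-2.78, -2.88 and -2.67) and gets no change. With NBN (-1.998) and PALB2 (-0.73), LIG4 had the 3 lowest signals in NC.
At their brightest probes both mismatch repair genes lay below the control in both knockdowns by less than 1.5-fold. MSH6, which recognises mispaired bases, read 4.74, 4.32 and 4.19 at the 10-spot probe printed above (SD between spots 0.03 to 0.07), a change of -0.42 and -0.55. PMS2, the endonuclease subunit of the next step, changed by -0.22 and -0.35 at its brightest probe. Its other 4 probes ranged from -0.69 to 0.52 in KD1 and from -0.73 to 0.28 in KD2, so that 1 probe passed 1.5-fold downwards in each knockdown and 1 lay above the control in both. PMS2 is known for near-identical pseudogenes. Of its probes 1, not the brightest, held 16 bases of a probe named PMS2P5, and the others shared no such run with a probe of another gene name. Whether pseudogene transcripts add to the signals was not tested, so PMS2 values are uncertain.

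**Figure D3:**
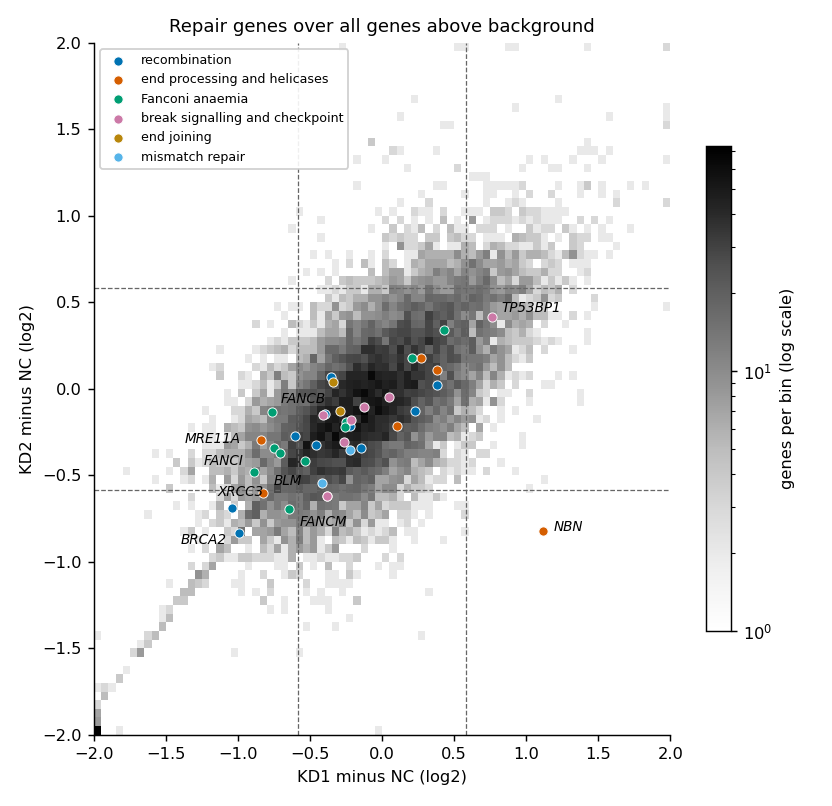
Change in KD1 (x axis) against change in KD2 (y axis), log2 with 75th percentile scaling, for the 38 measured repair genes (coloured by role) over all 18602 genes (grey, number of genes per bin on a log scale, values past 2 drawn at the edge, dashed lines at 1.5-fold). BRCA2, XRCC3, BLM and FANCM lie in the lower left corner past both lines, NBN lies alone at the lower right, and genes on the thin diagonal are bounds set at the background of both knockdowns.

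How far the probes of a gene went together could be seen for the 11 repair genes with more than 1 probe above background on all arrays. No gene had probes past 1.5-fold in opposite directions, but 6 genes in KD1 and 4 in KD2 had probes of opposite sign. The 3 FANCA probes were all past 1.5-fold in KD1, at -0.75, -0.68 and -0.66. A second ATRIP probe was at -1.07 in KD1 and -0.48 in KD2, so the knockdown in which ATRIP passed the line depended on the probe.
FANCD2 probes disagreed. A dimmer probe changed by 0.27 and 0.31, and the dimmest (-2.25 in NC) by -0.42 and 1.16, against -0.71 and -0.37 at the brightest. The 1.5-fold lower FANCD2 signal in KD1 therefore rests on 1 of 3 probes.

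**Figure D4:**
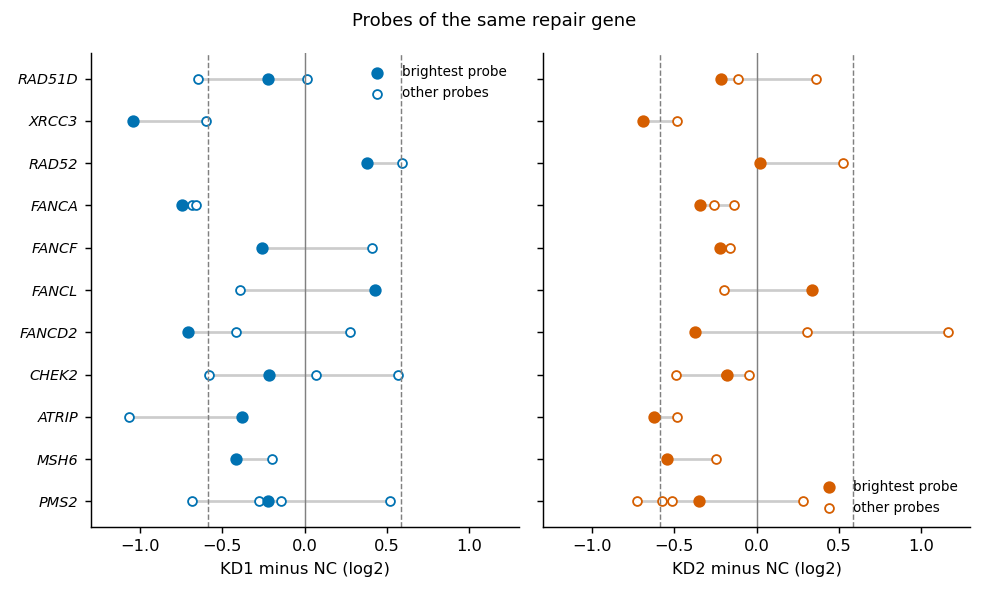
Log2 change in KD1 (left) and KD2 (right) at each probe of the 11 repair genes with more than 1 probe above background on all arrays (filled points the brightest probe, open points the others, dashed lines at 1.5-fold). The 3 FANCA probes lie together left of the line in KD1, and the FANCD2 probes spread over both signs.

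A further 51 repair genes outside the 39, from recombination to base excision repair, were read for context. Of 50 measured, 9 were lower by 1.5-fold in KD1 (18%, against 14% of all genes) and 6 in KD2 (12%, against 10.6%). In each knockdown 1 was higher (2%, against 12.4% in KD1 and 9.68% in KD2). Their medians were -0.11 and -0.22, and the shares lower were near those of all genes. RAD54B, a relative of RAD54L, was lower in both (-0.59 and -0.72), as was LIG3, the ligase of base excision repair (-0.61 and -0.64). They were the 2 genes of this list lower in both (4%, against 5.62% of all genes).
Repair transcripts are known to rise and fall with the cell cycle, and 37 genes of replication and mitosis were read beside them. In KD1, 9 were lower (24.3%, against 14%) and 2 higher (5.41%, against 12.4%). In KD2 10 were lower (27%, against 10.6%) and 1 higher (2.7%, against 9.68%). The medians were -0.31 and -0.29. Those lower in both (18.9%, against 5.62% of all genes) were MKI67, MCM5, CDT1, CCNB1, CDC20, PLK1 and KIF20A. They were led by MCM5, a helicase subunit of replication (-1.33 and -1.11). RRM2, a subunit of the enzyme that makes deoxynucleotides, was higher in both (1.07 and 1.00). The medians of the repair genes (-0.32 and -0.22) lay close to these, and the part of the cell cycle in the repair genes' changes was not tested. In bulk RNA, fewer cycling cells and less RNA of a gene per cell cannot be told apart.
The 21 repair genes with the E2F letters had a median of -0.38 in KD1 and -0.22 in KD2, with 5 and 3 genes lower by 1.5-fold. The 13 measured genes without the letters had medians of -0.22 and -0.22, with 4 and 3 genes lower. Over all genes matched to the table, those with the letters were lower in 10.3% of cases in KD1 and those without in 11.2%. In KD2 the shares were 10.15% with the letters and 10.79% without.

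Every direction given here is relative to the scaling of the arrays. With spike-in controls the median of all genes was 0.58 in KD1 and 0.24 in KD2, and with the deposited unscaled values it was 0.35 and 0.05. A scaling by 1 number per array shifts the repair genes and all genes alike, so the median of the repair genes minus that of all genes is the same by construction under those scalings (-0.25 in KD1 and -0.17 in KD2). Where the processing could change it, it was -0.15 and -0.14 with normexp correction, -0.27 and -0.17 with quantile normalization, and -0.22 and -0.18 with each gene's probes averaged. With normexp background correction 5 of 38 repair genes were lower by 1.5-fold in KD1, against 4.99% of all genes. In KD2 1 of 38 was lower, against 5.01%, so the share of repair genes was not above that of all genes there. XRCC3 alone was lower in both, against 1.87% of all genes.

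**Figure D5:**
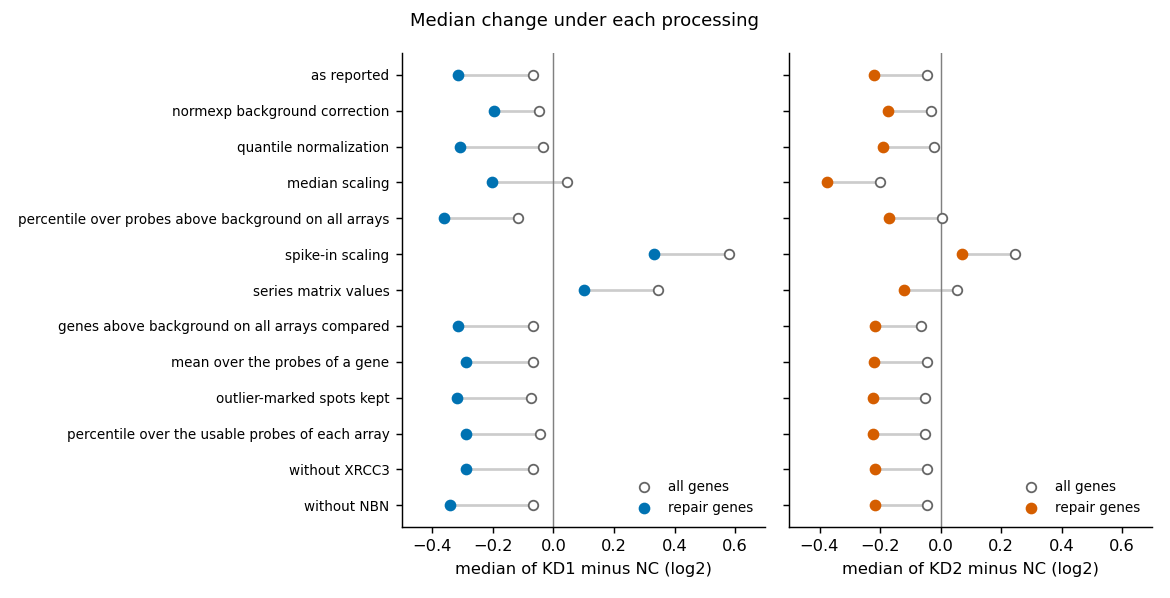
Median log2 change against the control of the repair genes (filled points) and of all genes measured (open points) in KD1 (left) and KD2 (right) under each processing. The filled point lies left of the open one in each row, by a distance that scaling by 1 number per array cannot change, and it lies above 0 for spike-in scaling in both panels and for the series matrix values in KD1.

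All 3 arrays shared 1 slide and 1 scan, with 62976 spots each, and 40.7% to 42.3% of the probes were well above background. No spot was saturated, and KD1 had 141 spots marked as uneven against 6 in NC and 5 in KD2. The median SD between spots of one probe was 0.038 to 0.049 on the log2 scale, and with 1 array per group the number of arrays limits the precision. Epithelial markers fit the labelled cell type in part: 8 of 10 were above background on all arrays, while VIL1 was so on none. Of 10 markers of other cell types, 6 were above background on all arrays (CD14, VWF, COL1A1, ACTA2, DES and ALB) and PTPRC on 1, while CD3E, PECAM1 and COL3A1 were so on none. The part of such cells or transcripts in the results was not tested.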

How the data were processed

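RNA of 1 control and 2 knockdown cultures of HCT116 cells was hybridised to one-colour 60-base Agilent arrays. The authors deposited the scanner output of Feature Extraction (version 10.7.1.1 per the file headers), whose processed intensity per spot is background-subtracted, and a table of the same intensities per probe. Here control spots and outlier-marked spots were left out (130 probes had no usable spot on an array), spots of a probe were averaged, and log2 of the deposited intensity was taken minus each array's 75th percentile over probes usable on all arrays. Each gene was read at its brightest probe over the 3 arrays. A change needed a signal well above background on either array of the pair, and a signal below the lowest well-above-background signal of its array was set to it, which makes the change a bound. Genes past 1.5-fold were counted.

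With 1 array per group no test was run. The genes named were PRMT1, repair genes past the fold the same way in both knockdowns, the 5 with the widest gap between knockdowns, the 3 highest and 3 lowest control signals, those not above background, those with conflicting probes, the known PRMT1 substrates, and genes of the context lists past the fold in both, and others are named for their role. The members and lists were chosen with earlier results of these data known. Promoters came from RefSeq (GRCh38.p14), with 37 gene names matched directly and 2 as synonyms. Alternatives were normexp background correction (offset 50), other scalings, filters, probe rules and a 2-fold threshold. Counting was checked on simulated data. Python 3.11.15, numpy 2.4.6, pandas 2.3.3, R 4.3.3 and limma 3.58.1 were used. Arrays after knockdown of other genes were not analysed here.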

Additional observations from a re-analysis of the deposited data

Results flagged for a closer look

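NBN, a subunit of the MRE11 complex, stood out because its change had opposite signs in the knockdowns, 1.12 in KD1 and -0.82 in KD2, both against the control. Its probe is dim: the log2 signal was -1.998 in NC and -0.88 in KD1, and in KD2 it was not well above background, so the second value is a bound. The difference was not tested, since each knockdown has 1 array. The direction in KD1 and in KD2 held under each processing alternative that gave a value, which the requirement of signal on both arrays did not for KD2, with a range of 0.43 to 1.77 in KD1 and -0.98 to -0.32 in KD2, and both values were inside 1.5-fold with normexp background correction.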

How the results depend on the processing

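No paired analysis was possible because each group has 1 array. Spike-in scaling reversed the median change (0.33 in KD1, 0.070 in KD2). It left 0 genes lower in KD1, in KD2 or in both, against 1.88%, 3.62% and 1.32% of all genes. It gave 10 of 38 genes higher in KD1, against 49.5% of all genes. In KD2 2 were higher, against 22.6%, and in both 2 (FANCL and TP53BP1), against 18.5%. With this scaling 8 were apart between knockdowns. Then 30 of 38 genes lay at or above 0 in KD1 and 21 in KD2. Among them were RAD54L (0.042) and FANCM (0.0016), which had been past 1.5-fold below in KD1. The scalings also moved the median of KD1 minus KD2 over all genes, which was -0.0074 in the main processing. It was 0.35 with spike-in scaling, 0.31 unscaled and 0.26 with median scaling. The share of all genes apart is not given for these scalings, so their counts apart do not single out the repair genes. The deposited unscaled values reversed the KD1 median (0.099) and moved the KD2 median to -0.12. They gave 1 gene lower in KD1 (against 3.58% of all genes), 4 in KD2 (against 7.41%) and 1 in both (against 2.06%). With them 8 were higher in KD1, against 32.5% of all genes, and 6 were apart. Normexp correction gave 5 lower in KD1 (against 4.99% of all genes), 1 in KD2 (against 5.01%) and 1 in both (against 1.87%). It gave 1 higher in KD1 (against 8.64%), 1 apart and a KD1 median of -0.195. Quantile normalization left 2 lower in both (BRCA2 and FANCM), against 5.46% of all genes. Median scaling gave 5 apart and medians of -0.20 and -0.37, and moved the median of all genes to 0.05 and -0.199. A percentile taken only over probes that all arrays measured gave 4 lower in KD2, against 8.78% of all genes. The median of all genes in KD1 was then -0.12. With genes above background on all arrays compared, 1 was apart. At 2-fold, 1 was lower in KD1 (against 3.57% of all genes), 0 in KD2 (against 2.48%) and 0 in both (against 1.42%). At that fold 1 was higher in KD1 (against 4.19%) and 1 was apart. Without NBN, 1 was higher in KD1 (against 12.4% of all genes) and 1 apart. This alternative, leaving out XRCC3 and taking the percentile over each array's own usable probes were chosen after seeing the data. The PRMT1 change ranged from -3.33 to -2.64 (KD1) and from -4.71 to -4.26 (KD2). Of 759 values of single genes under alternatives, 689 kept their side of 1.5-fold, 49 dropped inside it, 19 moved past it and 2 that had been past it changed sign. Over all 759, past the line or not, 63 changed sign, 33 of them with spike-in scaling and 16 unscaled. The causes were not tested. Depth is limited by 1 array per group, and dim probes such as NBN and LIG4 give bounds or no change.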
